A study of Mus musculus with 18 samples.

Results

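High fat diet and streptozotocin (STZ), a toxin that damages the insulin-producing cells of the pancreas, were examined in the spleen of mice that all received AOS (10 mg/kg), an agent that the labels give only by this abbreviation. The comparison sets 3 libraries from mice given the diet, STZ and AOS (HS_AOS) against 3 libraries from mice given AOS without the diet or STZ (AOS), and asks what diet and STZ did on the AOS background. It was made across every gene with at least 1 FPKM in at least 3 of the 18 libraries of the series, which kept 12969 of 19326 entries. FPKM divides fragment counts by transcript length and library size, so levels of different genes are per length. The same step without AOS was available in 3 libraries from mice given the diet and STZ (HS) and 3 untreated control libraries. The remaining libraries of the series came from diet and STZ mice with a microbiota transplant. They entered the gene filter and the estimate of spread alone. All mice were of the ICR strain, an outbred stock, and 10 weeks old; the labels name no altered allele, and they give neither the STZ dose, the make-up of the diet, the length of dosing nor the hour of collection. Whether the 3 libraries of a group are 3 different mice is not stated in the labels; p-values here reflect library-to-library spread, which may be technical.

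The spleen filters blood, recycles red cells and holds B cells, T cells, macrophages and antibody-secreting plasma cells; in the mouse it also makes red cells. Under diets rich in fat and when insulin is short, cells take up and burn more fatty acids, and the PPAR family of nuclear receptors, which sense fatty acids, switches on enzymes of mitochondrial fat oxidation. The liver turns part of this fat into ketone bodies, which other tissues break down again through the enzyme encoded by Oxct1. Plasma cells load the endoplasmic reticulum (ER) with antibody and keep its chaperones and translocation machinery high through the unfolded protein response, a programme in which the sensors ATF6 and IRE1 activate ER chaperone genes.

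Summed FPKM ran from 718224 to 765209 in HS_AOS and from 696466 to 743098 in AOS, and 12297 to 12532 genes reached 1 FPKM in each of these 6 libraries. Absolute depth is unknown because the files hold no counts. B cell markers were abundant, with a median member between 105 and 146 FPKM in each of the 6 libraries, with no listed marker at 0. The haemoglobin share of summed FPKM was 21.5% to 33.1% in HS_AOS and 17.2% to 25.6% in AOS. Library HS_AOS 1 stood apart from HS_AOS 2 and 3 on the first principal component (-23.5 against -3.56 and -7.85), and pancreatic acinar transcripts made up 3.65% of its summed FPKM against 0.415% in HS_AOS 2 and 0.0733% in HS_AOS 3. In the comparison without AOS, HS 1 and control 1 lay farther out on that component, at -32.7 and -31.5; HS 2 and 3 were at -8.04 and -14.1 and control 2 and 3 at -2.66 and 19.4. Lists of metabolic, ER and plasma cell genes are also given without HS_AOS 1.

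Diet and STZ in AOS-dosed mice changed 5 genes past the test: a fatty acid thioesterase (Acot1), a fatty acid hydroxylase (Cyp4b1) and a TGF-beta-induced transcription factor (Klf10) rose, while the ketone body enzyme Oxct1 and the ER chaperone Hsp90b1 fell. The test was limma on log2(FPKM + 1) with Benjamini-Hochberg adjustment over the 12969 genes and a threshold of 0.05, and genes past that threshold are termed called. The 5 calls are 0.0386% of the genes tested, 0.0231% higher and 0.0154% lower. With libraries centred on their median 15 genes were called, 5 higher and 10 lower, and with values rescaled to a common sum 0 were called (686 at an unadjusted p under 0.05). At an unadjusted p under 0.05 there were 1088 genes (8.39%), 344 higher (2.65%) and 744 lower (5.74%). Counts of list members at that level in HS_AOS against AOS are to be read beside these shares. The 3 HS_AOS values lay wholly above or below the 3 AOS values for 2301 genes (17.7%), 946 higher (7.29%) and 1355 lower (10.4%).

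The 7 sequences shown here are stretches upstream of the start of ER chaperone and folding genes, because the genes that encode the ER folding machinery were low together in HS_AOS and these sequences hold the response element named for that programme. The ER stress element, CCAAT followed by 9 bases of any kind and then CCACG, binds NF-Y and ATF6; it was searched on both strands and is written in capitals; each sequence runs 5′ to 3′ along the gene's strand, is taken from RefSeq, and lies within the 250 bases before the gene start of the RefSeq table. For 6 of the 7 genes the bases after that start occurred in a GENCODE transcript, or a transcript's first bases occurred in the RefSeq sequence. Neither was found for Dnajc3. Such a match does not show that a transcript begins at that start. The Hsp90b1 stretch lies in part inside the GENCODE span of the gene given below. Hsp90b1 is given over all 250 bases because it was called, and the others over the element with 20 bases on each side.
Hsp90b1 (GRCm38.p6, chr10:86705445-86705694, minus strand): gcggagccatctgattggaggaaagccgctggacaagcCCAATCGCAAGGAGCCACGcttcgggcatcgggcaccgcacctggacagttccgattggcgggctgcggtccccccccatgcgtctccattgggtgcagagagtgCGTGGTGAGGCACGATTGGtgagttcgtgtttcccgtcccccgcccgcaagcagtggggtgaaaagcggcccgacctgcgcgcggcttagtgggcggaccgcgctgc
Hspa5 (GRCm38.p6, chr2:34772005-34772063, plus strand): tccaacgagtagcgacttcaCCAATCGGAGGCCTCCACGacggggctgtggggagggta
Pdia6 (GRCm38.p6, chr12:17266471-17266529, plus strand): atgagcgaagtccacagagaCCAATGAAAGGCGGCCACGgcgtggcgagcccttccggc
Creld2 (GRCm38.p6, chr15:88819500-88819558, plus strand): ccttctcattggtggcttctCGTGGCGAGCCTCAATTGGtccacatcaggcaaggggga
Calr (GRCm38.p6, chr8:84847055-84847113, minus strand): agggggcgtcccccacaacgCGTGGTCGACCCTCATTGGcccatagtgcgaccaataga
Canx (GRCm38.p6, chr11:50325780-50325838, minus strand): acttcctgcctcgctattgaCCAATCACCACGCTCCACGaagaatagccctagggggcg
Dnajc3 (GRCm38.p6, chr14:118937807-118937865, plus strand): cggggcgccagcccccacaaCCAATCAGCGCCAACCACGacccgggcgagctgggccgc
Of 20 listed unfolded protein response genes, 17 had a RefSeq window and 7 of these held the element (41.2%), against 35 of all 27025 genes in the RefSeq promoter table (0.13%) and 17 of 10171 tested genes with a window (0.167%). In the list of ER translocation and sugar transfer genes described below, 0 of 23 genes with a window held it. Hsp90b1 held 2 copies and the other 6 genes held 1 copy each. A match is a description of these letters and not a measure of binding. The list was made of genes of the response that the element is named for, and its share does not depend on these libraries. The part of the element in the changes was not tested.

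Oxct1 (chromosome 15, 4026383 to 4155344, mm10 coordinates from GENCODE) encodes the mitochondrial transferase that starts ketone body breakdown outside the liver. Its level was 23.6, 23.8 and 24.1 FPKM in HS_AOS and 36.9, 39.5 and 35.0 FPKM in AOS. The 3 HS_AOS libraries were nearly equal and all lay below every AOS library. The log2 change was -0.62 (SE 0.070, adjusted p = 0.00268 by limma). In the mice without AOS it was 24.8 ± 1.98 FPKM in HS and 33.9 ± 1.60 FPKM in control (SD, n = 3 each; log2 change -0.44, adjusted p = 0.0544 by limma), and the difference between the 2 changes did not pass (log2 -0.18, SE 0.099, adjusted p = 0.869). Oxct1 stayed called without any 1 of the 6 libraries.

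Acot1 (chromosome 12, 84009490 to 84018371), a cytosolic acyl-CoA thioesterase and PPARα target that releases free fatty acids from coenzyme A, stood at 9.74, 9.15 and 7.29 FPKM in HS_AOS and 1.38, 1.82 and 1.75 FPKM in AOS. Every HS_AOS value was above every AOS value. The mean was 5.29 times as high in HS_AOS as in AOS, and the log2 change on the log2(FPKM + 1) scale was 1.87 (SE 0.28, adjusted p = 0.0337 by limma). In HS and control it averaged 7.70 ± 4.98 and 1.66 ± 0.232 FPKM (log2 change 1.56, adjusted p = 0.123), so the change pointed the same way without AOS. Acot1 is closely related in sequence to Acot2, and the sources used here do not say how reads common to both were counted. The call ended when any 1 of the 6 libraries was left out (adjusted p 0.0721 to 0.311).

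Cyp4b1 (chromosome 4, 115624725 to 115647723), a cytochrome P450 that hydroxylates fatty acids and foreign compounds, stood at 9.26, 13.1 and 12.3 FPKM in HS_AOS and 4.18, 4.47 and 4.40 FPKM in AOS. The AOS libraries were close to each other, and all HS_AOS libraries were at least at 9.26 FPKM. The log2 change was 1.22 (SE 0.18, adjusted p = 0.0337 by limma), and the call held without HS_AOS 1 but not without any other of the 6 libraries (highest adjusted p 0.311). Means in HS and control were 10.8 ± 2.04 and 7.02 ± 1.34 FPKM (log2 change 0.55, adjusted p = 0.624).

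Klf10 (chromosome 15, 38291463 to 38300706), a zinc finger factor induced by TGF-beta and involved in the control of glucose and lipid genes, stood at 14.4, 14.3 and 13.8 FPKM in HS_AOS and 9.17, 10.1 and 10.4 FPKM in AOS. The groups did not overlap (log2 change 0.48, SE 0.079, adjusted p = 0.0485 by limma). It averaged 12.7 ± 1.37 FPKM in HS and 9.87 ± 0.154 FPKM in control (log2 change 0.33, adjusted p = 0.399). The call ended without any 1 of the 6 libraries (adjusted p 0.0974 to 0.381).

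Hsp90b1 (chromosome 10, 86690209 to 86705509) encodes GRP94, the HSP90 chaperone of the ER lumen, which folds integrins and Toll-like receptors. It stood at 292, 271 and 252 FPKM in HS_AOS and 549, 440 and 603 FPKM in AOS. The highest HS_AOS library lay below the lowest AOS library, and the log2 change was -0.95 (SE 0.15, adjusted p = 0.0485 by limma). Without AOS the values ran the other way, at 391.8 ± 6.89 FPKM in HS and 305 ± 50.8 FPKM in control (log2 change 0.38, adjusted p = 0.744). The difference between the 2 changes was -1.33 (SE 0.22, unadjusted p = 1.9e-05) and did not pass over all genes (adjusted p = 0.123 by limma). The call in HS_AOS against AOS held without AOS 2 and ended without any other of the 6 libraries (adjusted p up to 0.34).

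**Figure D1:**
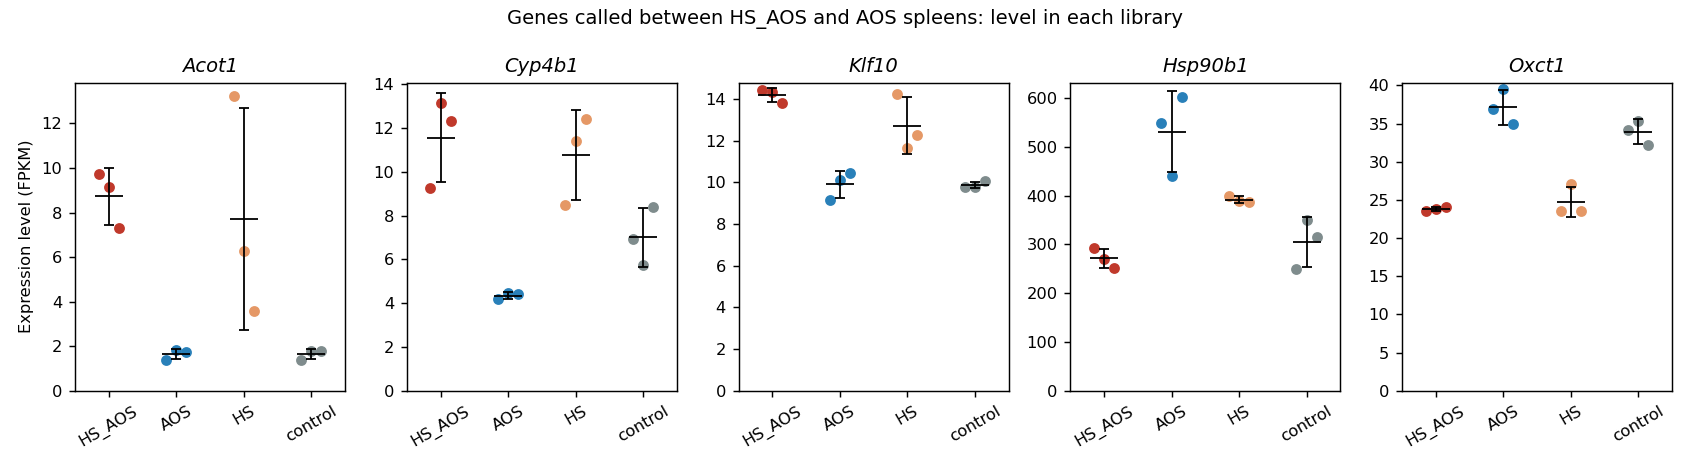
Expression level in FPKM (y axis, from 0) of the 5 called genes in each library (points) of the HS_AOS, AOS, HS and control groups, with the mean and SD of 3 libraries in black. Acot1, Cyp4b1 and Klf10 were higher and Hsp90b1 and Oxct1 lower in every HS_AOS library than in any AOS library, and Hsp90b1 was higher in HS than in control.

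Genes of fatty acid oxidation and PPAR targets were mostly higher in HS_AOS than in AOS. Of 24 tested members, 1 was called (Acot1) and 18 had a positive log2 change against 46.6% of all genes. At an unadjusted p under 0.05, 11 were higher and 0 lower, against 2.65% and 5.74% of all genes. The median log2 change was 0.21, against -0.012 over all genes, and 0.18 without HS_AOS 1. In HS against control the median was 0.11, with 9 higher and 0 lower at that level (2.93% of all genes were higher and 3.47% lower, 6.4% in all), and Plin2 was called there, at 40.1 ± 1.55 FPKM in HS and 23.6 ± 1.70 FPKM in control (adjusted p = 0.00205 by limma; 0.0154% of genes were called). The difference between the 2 changes was at an unadjusted p under 0.05 for 3 members, 1 higher and 2 lower, against 5.97% of all genes (2.27% higher), and limma called 0 of them. Without HS 1 these counts were 6 higher and 1 lower, and without HS_AOS 3 they were 3 and 0.

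Cpt1a, which admits long-chain fatty acids to mitochondria, stood at 46.8, 45.7 and 37.0 FPKM in HS_AOS and 26.1, 25.8 and 25.7 FPKM in AOS (log2 change 0.71, adjusted p = 0.0603 by limma). Plin2, the coat protein of lipid droplets, stood at 38.3, 32.6 and 30.4 FPKM in HS_AOS and 22.5, 25.7 and 27.0 FPKM in AOS (log2 change 0.41, adjusted p = 0.124 by limma). Acaa2, the last thiolase of mitochondrial oxidation, stood at 41.3, 43.0 and 34.3 FPKM in HS_AOS and 30.9, 31.3 and 28.1 FPKM in AOS. These 3 genes separated the groups completely and were not called. Chosen after its values were seen, Pdk4, the kinase that holds back glucose oxidation, had 5.76, 5.72 and 4.43 FPKM in HS_AOS and 2.67, 2.97 and 2.86 FPKM in AOS. Angptl4, whose product blocks lipoprotein lipase and which was chosen in the same way, had 17.6, 19.0 and 12.96 FPKM in HS_AOS and 8.53, 10.1 and 12.3 FPKM in AOS. Also chosen after their values were seen, Fabp4 (28.0, 39.1 and 19.5 FPKM in HS_AOS, 44.3, 126 and 64.8 FPKM in AOS) and Plin4 had negative log2 changes of -1.33 and -0.71; both are also adipocyte genes. The core oxidation enzymes Acadm and Acadl, chosen likewise, had log2 changes of -0.055 and -0.041.

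The ketone body list did not move as a whole. Of its 6 tested genes 3 had positive and 3 negative log2 changes (median -0.0016). At an unadjusted p under 0.05, 2 were higher and 2 lower. Beside Oxct1, a second gene of this list was lower in HS_AOS. Bdh1, which converts the main ketone bodies into each other, stood at 3.26, 2.90 and 2.21 FPKM in HS_AOS and 5.63, 4.98 and 4.71 FPKM in AOS (log2 change -0.70, adjusted p = 0.0657 by limma). The groups did not overlap, and Bdh1 was not called. In the mice without AOS it stood at 3.39 ± 0.359 FPKM in HS and 4.01 ± 0.503 FPKM in control (SD, n = 3 each).

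Genes that make fatty acids and sterols were mostly lower in HS_AOS. For lipogenesis the median log2 change was -0.25 over 15 genes (-0.22 without HS_AOS 1), with 3 positive and 12 negative. At an unadjusted p under 0.05, 1 was higher and 6 lower, and 0 were called. In HS against control the median was -0.16, with 12 of 15 negative, and 0 higher and 3 lower at that level. The difference between the 2 changes was higher for 1 and lower for 1 at that level. Fasn, fatty acid synthase, stood at 8.61, 8.17 and 8.29 FPKM in HS_AOS and 15.02, 20.5 and 12.9 FPKM in AOS (log2 change -0.85, adjusted p = 0.163 by limma). Thrsp, a nuclear regulator of lipogenesis, stood at 1.94, 1.56 and 1.01 FPKM in HS_AOS and 7.24, 13.2 and 5.39 FPKM in AOS. Acaca, which supplies malonyl-CoA, and Dgat2, which completes triglycerides, also separated the groups. In every one of these 4 genes all HS_AOS libraries lay below all AOS libraries.

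Lipogenic genes are abundant in fat cells, and fat cell transcripts moved the same way. Of 12 tested adipocyte genes 1 had a positive log2 change and 6 were lower at an unadjusted p under 0.05 (median -1.19, 0 called). In HS against control the adipocyte median was -0.82, with 11 of 12 negative and 1 lower at that level. The difference between the 2 changes was at that level for 0 of them. The summed list took 0.0149%, 0.0179% and 0.00865% of the summed FPKM in HS_AOS and 0.0235%, 0.0654% and 0.0356% in AOS, so the groups did not overlap, with 0 to 1 of the 14 listed genes at 0 in each of these 6 libraries. Adipoq, the fat cell hormone adiponectin, stood at 2.72, 4.24 and 1.39 FPKM in HS_AOS and 7, 20.4 and 10.04 FPKM in AOS, and Cfd, adipsin, at 13.4, 12.2 and 5.15 against 29.4, 85.5 and 51.4. Without AOS 2 the adipocyte median was -0.79 with 1 gene lower at that level, without HS_AOS 3 also 1 was lower, and without HS_AOS 1 the median was -1.18 with 4 lower. The part of fat cell transcripts in the lipogenic values was not tested.

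Cholesterol synthesis and uptake genes had a median log2 change of -0.20 over 22 genes, with 1 positive and 9 lower at an unadjusted p under 0.05 (0 called); without HS_AOS 1 the median was -0.18 with 6 lower. Nsdhl, a sterol dehydrogenase, stood at 9.64, 11.8 and 10.8 FPKM in HS_AOS and 15.9, 13.4 and 15.3 FPKM in AOS. Insig1, the ER anchor that retains the sterol sensor, stood at 10.9, 13.7 and 10.7 FPKM in HS_AOS and 17.0, 17.0 and 16.7 FPKM in AOS. In both genes the groups were apart. In HS against control the list's median was -0.15, with 4 lower, and 0 members showed a difference between the 2 changes at an unadjusted p under 0.05.

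**Figure D2:**
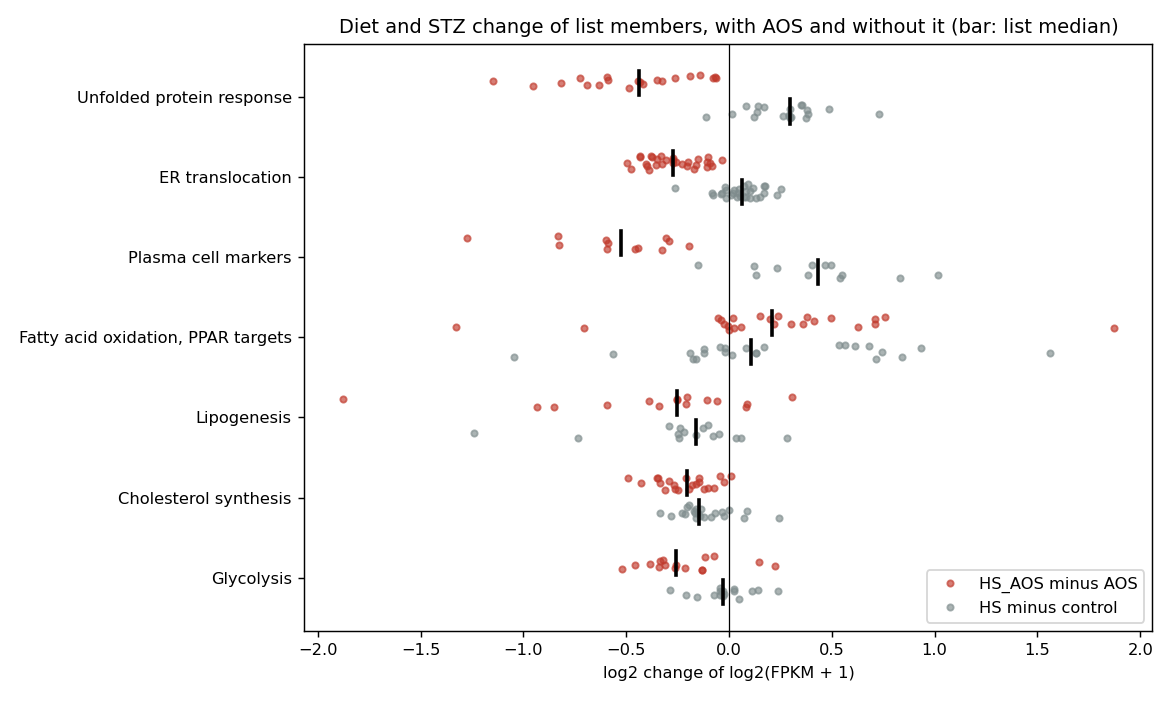
Log2 change of each tested member (points) of 7 gene lists for HS_AOS minus AOS (red, upper row of each list) and HS minus control (grey, lower row), with the list median as a black bar; the x axis is in units of log2(FPKM + 1). Unfolded protein response members were all below 0 in HS_AOS (median -0.44) and mostly above 0 in HS (median 0.29), while fatty acid oxidation genes had positive medians in both.

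Chaperones and foldases of the ER were lower together in HS_AOS than in AOS. Of 20 unfolded protein response genes tested, none had a positive log2 change (1 when values were rescaled to a sum without haemoglobin and acinar genes), 16 were lower at an unadjusted p under 0.05 against 5.74% of all genes, and 1 was called (Hsp90b1). Their median log2 change was -0.44 (-0.45 without HS_AOS 1, and between -0.53 and -0.37 over the 6 fits that left out a library). For 16 members every HS_AOS library was below every AOS library, against 10.4% of all genes. Hspa5, the ER chaperone BiP, stood at 219, 210 and 215 FPKM in HS_AOS and 288, 269 and 320 FPKM in AOS (log2 change -0.44). Hspa5, like Calr, Pdia3, Atf4, Atf6 and Ddit3 below, was chosen after its values were seen.

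Creld2, an ER-resident disulfide isomerase, stood at 34.8, 29.9 and 30.7 FPKM in HS_AOS and 77.0, 54.3 and 87.6 FPKM in AOS (log2 change -1.15, adjusted p = 0.0971 by limma). Pdia6, a disulfide isomerase, stood at 87.6, 76.7 and 70.4 FPKM in HS_AOS and 135, 111 and 144 FPKM in AOS (log2 change -0.72, adjusted p = 0.0698 by limma). Sdf2l1, a cofactor of BiP, stood at 26.5, 23.2 and 21.5 FPKM in HS_AOS and 46.1, 36.1 and 45.6 FPKM in AOS. In these genes AOS 2 was the lowest of the AOS libraries and still above all HS_AOS libraries. The lectin chaperone gene Calr (271, 274 and 263 FPKM in HS_AOS, 393, 327 and 417 FPKM in AOS) and the foldase gene Pdia3 (169, 168 and 162 FPKM in HS_AOS, 226, 205 and 244 FPKM in AOS) had the same order. The transcription factor genes Atf4, Atf6 and Ddit3, the last of which encodes the stress factor CHOP, had log2 changes of -0.08, -0.07 and -0.07.

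Genes for entry into the ER and for attaching sugar chains were also low in HS_AOS. This list of 30 genes was drawn up after Rpn1 and Spcs3 had been seen among the smallest p-values, so it is a description alone. Of its 30 members none had a positive log2 change (1 under that same rescaling) and 20 were lower at an unadjusted p under 0.05 (median -0.27, or -0.28 without HS_AOS 1; 0 called). Rpn1, a subunit of the oligosaccharyltransferase, stood at 47.4, 46.1 and 42.8 FPKM in HS_AOS and 68.7, 57.1 and 68.3 FPKM in AOS (log2 change -0.50, adjusted p = 0.0603 by limma). Spcs3, of the signal peptidase, stood at 39.5, 41.4 and 37.9 FPKM in HS_AOS and 51.0, 50.6 and 51.2 FPKM in AOS (log2 change -0.36, adjusted p = 0.0603 by limma). Both genes had tight groups that did not overlap. Lman1, the cargo receptor from the ER to the Golgi, Dnajb11, a cofactor of BiP, and Selenos, a selenoprotein of ER-associated degradation, were among the uncalled genes with the smallest p, with log2 changes of -0.63, -0.60 and -0.53.

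Plasma cell markers were lower in HS_AOS too. The list includes genes of ER proteins, such as Derl3, Fkbp11 and Ssr4, so it is not separate from the ER lists. Of 15 listed genes 12 were in the data and tested. None of these had a positive log2 change and 8 were lower at an unadjusted p under 0.05 (median -0.52, or -0.57 without HS_AOS 1, 0 called). That count was 4 without AOS 1, 5 without AOS 3 and 10 without AOS 2. Mzb1, a plasma cell and B cell cofactor of GRP94 in antibody assembly, stood at 267, 262 and 185 FPKM in HS_AOS and 485, 333 and 449 FPKM in AOS. Xbp1, the factor of the IRE1 branch that drives secretory cells and stands in both this list and the unfolded protein response list, stood at 61.5, 53.4 and 57.7 FPKM in HS_AOS and 95.9, 71.5 and 95.7 FPKM in AOS. Sdc1, the surface proteoglycan CD138, stood at 5.47, 5.04 and 5.06 FPKM in HS_AOS and 8.53, 7.09 and 9.57 FPKM in AOS. Each of these 3 genes separated the groups, with AOS 2 the lowest of its group. In bulk tissue, fewer plasma cells and less RNA of these genes per cell cannot be told apart, and the part of plasma cell number in the ER values was not tested.

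Without AOS the unfolded protein response and plasma cell genes leaned the other way. In HS against control the median of the unfolded protein response list was 0.29, with 19 of 20 positive (45.5% of all genes) and 8 higher at an unadjusted p under 0.05 (0 called). Plasma cell markers had a median of 0.43 with 7 of 12 higher. The difference between the 2 changes was below 0 at an unadjusted p under 0.05 for 16 of the 20 unfolded protein response genes and 9 of the 12 plasma cell genes. The share of all genes was 3.7%, and limma called 0 of these members. The 30 ER entry genes had a median of 0.062 in HS against control, with 22 positive, 0 higher and 1 lower at that level. Their difference was below 0 at that level for 18 (0 called). That list was drawn up from the HS_AOS and AOS values, so its count is a description alone. For the unfolded protein response genes the count of 16 was also found without HS_AOS 1, without HS 1 and without control 1. Control 1 had the lowest list level among the HS_AOS, AOS, HS and control libraries. Transcripts of other cells differed between these libraries too. Pancreatic acinar genes had a median log2 change of 3.89 in HS against control, with 19 of 27 higher at an unadjusted p under 0.05, and took 3.29%, 0.368% and 0.528% of summed FPKM in HS and 0.334%, 0.0605% and 0.00582% in control. Neutrophil granule and surface genes took 0.324%, 0.124% and 0.239% in HS and 1.95%, 0.595% and 0.132% in control. The part of either in the ER and plasma cell values was not tested.

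In the mean of log2(FPKM + 1) over the 20 unfolded protein response genes, the levels were 5.87, 5.83 and 5.78 in HS_AOS and 6.35, 6.12 and 6.42 in AOS. They were 6.17, 6.14 and 6.13 in HS and 5.70, 6.04 and 5.90 in control. The HS_AOS libraries lay within the range of control, and 2 of the 3 AOS libraries above every HS library. For plasma cell markers the means were 4.90, 4.85 and 4.70 in HS_AOS, 5.53, 5.11 and 5.49 in AOS, 5.28, 4.92 and 4.74 in HS, and 4.35, 4.90 and 4.44 in control. The AOS group held the 2 highest libraries for both lists.

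**Figure D3:**
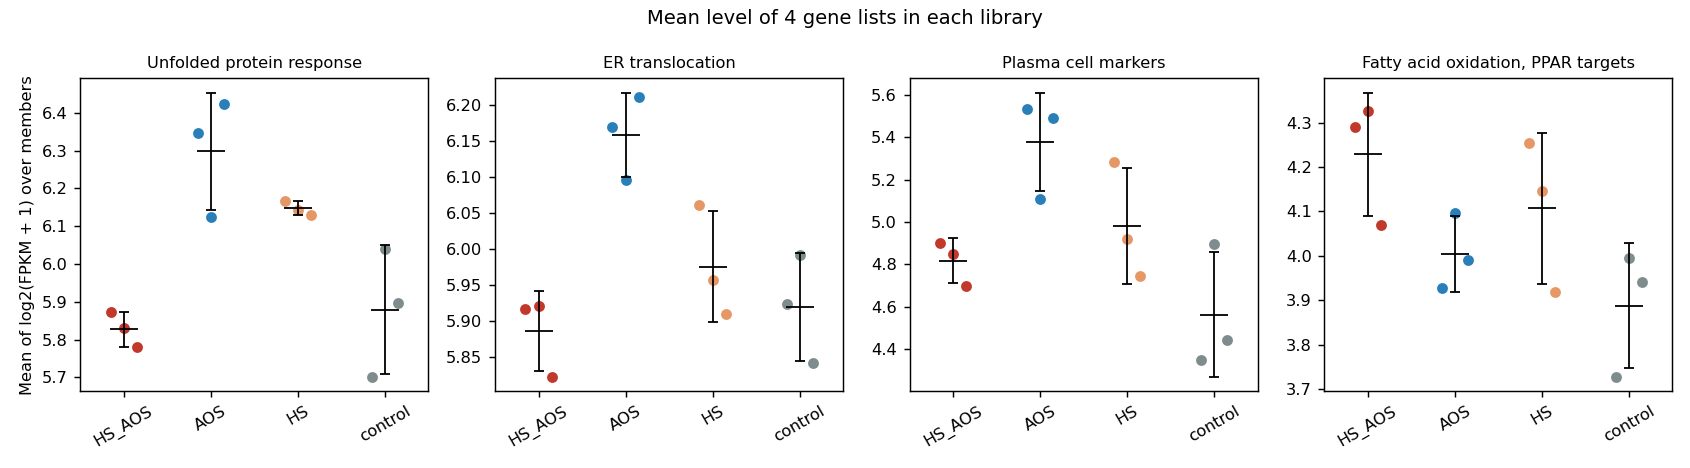
Mean of log2(FPKM + 1) over the tested members of 4 gene lists (y axis, not from 0) in each library (points) of HS_AOS, AOS, HS and control, with the mean and SD of 3 libraries in black. The AOS libraries were the highest for ER translocation genes and had the 2 highest values for unfolded protein response genes, and HS_AOS lay within the range of control for unfolded protein response genes.

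Across all 12969 genes the change in HS_AOS against AOS and the change in HS against control, which share no library, had a Pearson correlation of 0.350 and a Spearman correlation of 0.0074; genes are not independent replicates, and all libraries share 1 normalization. Of the 344 genes higher at an unadjusted p under 0.05, 203 (59.0%) were also higher in HS, and of the 744 lower genes 393 (52.8%) were also lower in HS, against 51.7% with the same sign over all genes. By limma the difference between the 2 changes was called for 1 gene, 0.00771% of those tested. This was Kap, a transcript best known from kidney, listed at 0.15, 0 and 0.15 FPKM in HS_AOS and at 0 in all 3 AOS libraries, with 0.763 ± 0.785 FPKM in HS and 18.1 ± 4.17 FPKM in control. Kap was high in the control libraries alone among these 12. Sperm genes had the same pattern, with a median log2 change of -3.38 in HS against control. The 4 tested of 6 listed genes were lower at an unadjusted p under 0.05 (3.47% of all genes). The difference between the 2 changes was higher for 4 of 4 at that level (2.27% of all genes, median 3.11, 0 called). Genes high in the 3 control libraries alone, as Kap was among these 12, pass the filter of 1 FPKM in 3 libraries. These counts are therefore a description alone. Prm1, the sperm protamine, chosen after its values were seen, stood at 0.85, 0.31 and 0 FPKM in HS_AOS, 0.57, 0.57 and 0 FPKM in AOS, 1.41, 0 and 0.28 FPKM in HS, and 11.3, 85.6 and 6.56 FPKM in control. The part of sperm transcripts in the Kap result was not tested. Among other genes named for this difference, Anxa9, an annexin, stood at 6.33, 4.84 and 6.13 FPKM in HS_AOS and 4.07, 3.87 and 3.99 FPKM in AOS, but 4.37 ± 0.35 in HS and 4.92 ± 0.18 in control (not called).

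**Figure D4:**
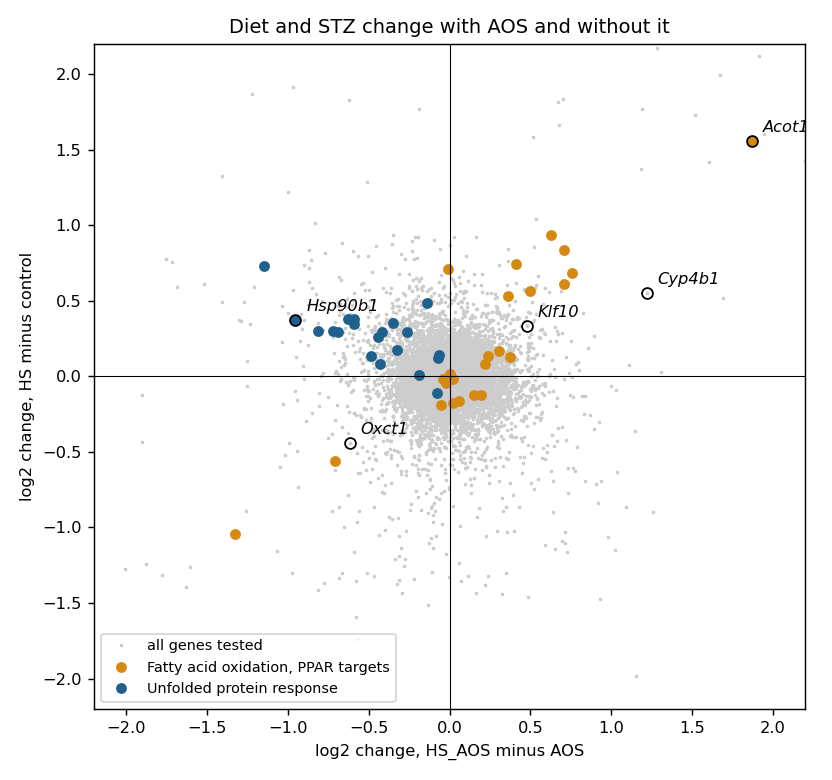
Log2 change in HS minus control (y axis) against log2 change in HS_AOS minus AOS (x axis) for each gene tested (grey points), with fatty acid oxidation genes in orange, unfolded protein response genes in blue and the 5 called genes ringed; 37 genes lie beyond the axes, which end at 2.2. Acot1, Cyp4b1 and Klf10 lie to the upper right and Oxct1 to the lower left, while Hsp90b1 and most unfolded protein response genes lie to the upper left.

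Glycolysis genes had a median log2 change of -0.26 over 16 genes, with 0 higher and 8 lower at an unadjusted p under 0.05 (0 called), and a median of -0.03 in HS against control. Hk2, a hexokinase, stood at 1.67, 1.86 and 1.44 FPKM in HS_AOS and 2.79, 2.46 and 3.19 FPKM in AOS, and Gapdh at 815, 818 and 676 FPKM in HS_AOS against 1025, 911 and 1076 FPKM in AOS. Both genes separated the groups. Without HS_AOS 1 the median was -0.27 with 8 lower. Without HS_AOS 3 the median was -0.17 with 3 genes lower, and without AOS 3 the count was 4. Genes of oxidative phosphorylation had a median of -0.12 over 27 (-0.051 when rescaled to a sum without haemoglobin and acinar genes), with 6 lower at an unadjusted p under 0.05 and 0 called, and among them Cox5a, a subunit of cytochrome oxidase, stood at 166, 164 and 142 FPKM in HS_AOS and 196, 204 and 205 FPKM in AOS. The count of 6 was 2 without AOS 3, 3 without AOS 2 or HS_AOS 3 and 10 without control 3. Of the 16 insulin and IGF signalling genes 2 were higher and 0 lower at that level. They were Txnip, an arrestin that limits glucose uptake and is induced by glucose, at 260, 256 and 238 FPKM in HS_AOS and 159, 150 and 159 FPKM in AOS, and the insulin receptor gene Insr at 6.20, 6.10 and 6.55 FPKM in HS_AOS and 4.87, 5.55 and 4.48 FPKM in AOS. Both separated the groups without being called (adjusted p = 0.297 for Txnip and 0.42 for Insr by limma).

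Among lists of immune cells no member was called. Of all genes, 2.65% were higher and 5.74% lower at an unadjusted p under 0.05. T cell markers had a median log2 change of -0.175 over 19 genes. Of these 2 were positive and 17 negative, but 7 were positive without AOS 1. For 6 members every HS_AOS library was below every AOS library, against 10.4% of all genes. At an unadjusted p under 0.05, 1 was lower, no more than the share of all genes. It was the costimulatory receptor gene Cd28 (12.6, 10.7 and 9.82 FPKM in HS_AOS, 17.8, 13.1 and 16.1 FPKM in AOS). B cell markers had 0 higher and 0 lower over 14 genes at that level, and their median was 0.01; without HS_AOS 2 it was -0.16, with 0 positive and 1 lower, and without HS_AOS 3 it was 0.09. For NK and cytotoxic genes, 2 of 18 were lower at that level, among them Gzmb, granzyme B, at 2.69, 2.16 and 2.85 FPKM in HS_AOS and 6.51, 2.91 and 8.93 FPKM in AOS. That count was 5 without HS_AOS 3 and 1 without AOS 3, HS_AOS 1 or HS 2. Of 14 monocyte and macrophage genes, 2 were lower at that level, Ms4a7 (6.18, 6.78 and 5.72 FPKM in HS_AOS, 9.87, 10.5 and 8.71 FPKM in AOS) and Lyz2, lysozyme. Neutrophil granule and surface genes overlapped between the groups in all 18 members (median -0.30, but -0.05 without AOS 2, -0.46 without HS_AOS 2 and -0.57 without AOS 1; 0 at an unadjusted p under 0.05), as did primary granule genes in all 8. Germinal centre B cell genes had negative log2 changes in all 8 members (median -0.53, 0 at an unadjusted p under 0.05), but that median was -0.16 without HS_AOS 3, and -0.76 with 4 of 8 lower without HS_AOS 1.

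Interferon response genes had a median log2 change of -0.47 over 25 genes, and the value rested on single libraries. At an unadjusted p under 0.05, 2 were lower, against 5.74% of all genes (0 called). The median was -0.01 without AOS 3 and -0.10 without HS_AOS 2, but -0.85 without AOS 2 and -0.89 without HS_AOS 3. Ifi44, an interferon-induced gene, stood at 4.34, 2.13 and 11.7 FPKM in HS_AOS and 10.3, 4.72 and 43.4 FPKM in AOS, and the groups overlapped. Cxcl9, a chemokine induced by interferon gamma, stood at 10.3, 11.8 and 12.2 FPKM in HS_AOS and 14.2, 20.8 and 19.1 FPKM in AOS, without overlap.

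Mast cell and basophil genes were low in level and higher in HS_AOS. Of 7 tested, 4 were higher at an unadjusted p under 0.05 (median 0.25; 0 called). Cpa3, mast cell carboxypeptidase, stood at 1.41, 2.19 and 2.2 FPKM in HS_AOS and 0.53, 0.99 and 1.06 FPKM in AOS. Mcpt4, a mast cell chymase, stood at 2.78, 6.10 and 5.81 FPKM in HS_AOS and 1.41, 2.45 and 1.74 FPKM in AOS. Both separated the groups, and 0 of the 7 were higher or lower at that level in HS against control. The count was 1 without HS_AOS 3 and 2 without AOS 1.

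Erythroid genes had positive log2 changes in 25 of 27 members (median 0.37). At an unadjusted p under 0.05, 2 were higher, against 2.65% of all genes, and 0 were called. The median was 0.14 without HS_AOS 3 and 0.21 without AOS 3, and 0.59 without HS_AOS 2. The 2 were beta-globin genes that near-identical copies make uncertain: Hbb-bs stood at 14209, 11743 and 37546 FPKM in HS_AOS and 546, 63.4 and 8414 FPKM in AOS, and Hbb-bt followed it in each library. The 3 AOS values of each gene were far apart, and all HS_AOS values lay above them. The sources used here do not say how reads common to several beta-globin genes were counted. The ICR stock is outbred, and the labels do not give the beta-globin genotype of each mouse. The part of genotype in these values was not tested.

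Circadian clock genes included 4 higher and 0 lower of 17 at an unadjusted p under 0.05: Dbp, Nr1d1, Tef and Per3 (0 called). Dbp, a clock output factor, stood at 14.7, 16.01 and 10.3 FPKM in HS_AOS and 9.69, 8.78 and 6.19 FPKM in AOS, and Nr1d1, the repressor Rev-erb alpha, at 8.56, 8.04 and 6.12 against 5.68, 6.09 and 3.15. The count was 1 without AOS 3 and 2 without HS_AOS 1. For clock genes, group and hour of collection cannot be told apart, since no hour is given. Heat shock chaperones had negative log2 changes in all 15 members (median -0.24), but 5 were positive without AOS 3 and 5 without HS_AOS 2. At an unadjusted p under 0.05, 1 was lower, against 5.74% of all genes, and 0 were called. The list was led by Hspe1, the mitochondrial co-chaperonin (156, 155 and 181 FPKM in HS_AOS, 220, 223 and 246 FPKM in AOS). The median ran from -0.38 without AOS 1 to -0.095 without HS_AOS 2. Under the rescaling without haemoglobin and acinar genes 2 members were positive. Glucocorticoid responsive genes (14 tested), cell division genes (30), MHC class II presentation genes (11) and megakaryocyte genes (13) had 0 members at an unadjusted p under 0.05 in either direction.

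Transcripts of pancreatic acinar cells, which make digestive enzymes, were found in the spleen libraries at levels that differed within groups. Try5, a trypsinogen, stood at 2136, 228 and 43.1 FPKM in HS_AOS and 1.22, 31.8 and 25.02 FPKM in AOS. Over 27 genes the median log2 change was 3.05, with 25 positive. At an unadjusted p under 0.05, 2 were higher, against 2.65% of all genes, and 0 were called. Without HS_AOS 1 the median was 1.55 with 0 higher, and without HS_AOS 3 it was 4.39 with 21 higher. As a share of summed FPKM the list took 3.65%, 0.415% and 0.0733% in HS_AOS and 0.00949%, 0.145% and 0.0954% in AOS, so the groups overlapped, with 0 to 2 of its 27 genes at 0 in each of the 6 libraries. Islet genes did not reach 1 FPKM in enough libraries to be tested. The part of acinar transcripts in the other results was not tested, and the 5 calls were set beside fits without HS_AOS 1 above.

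**Figure D5:**
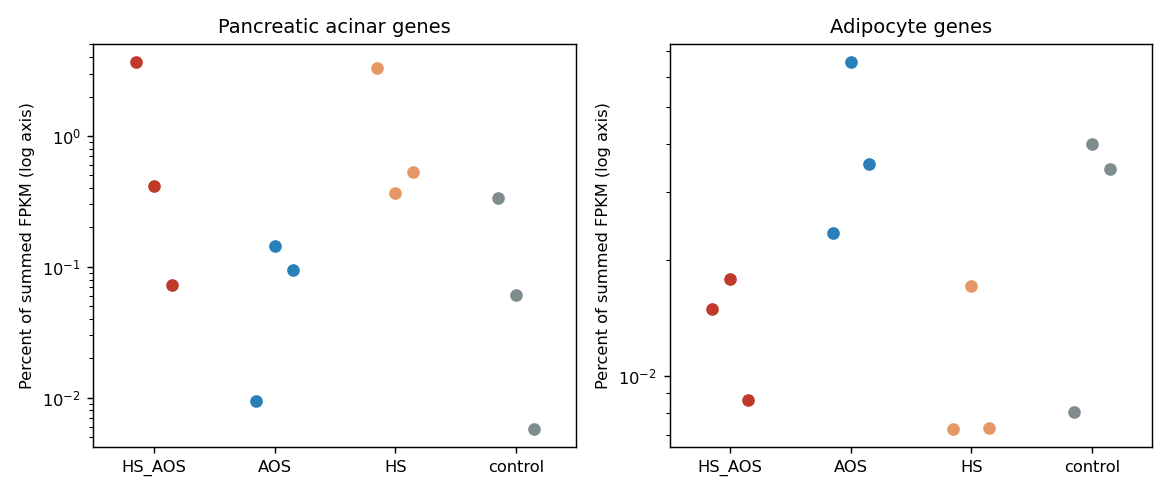
Share of summed FPKM taken by pancreatic acinar genes (left) and adipocyte genes (right) in each library (points) of HS_AOS, AOS, HS and control, on log axes in percent. Acinar shares ran from 0.0733% to 3.65% in HS_AOS and from 0.00949% to 0.145% in AOS, and adipocyte shares were lower in every HS_AOS library than in any AOS library.

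The remaining uncalled genes with the smallest p give the range of single-gene changes just outside the threshold. On the higher side, Tbkbp1, an adaptor of the kinase TBK1, stood at 6.46, 6.56 and 7.20 FPKM in HS_AOS and 4.04, 4.72 and 4.92 FPKM in AOS (log2 change 0.48, adjusted p = 0.0603 by limma). Cd300a, an inhibitory receptor of myeloid and mast cells, stood at 12.9, 12.1 and 13.3 FPKM in HS_AOS and 8.41, 9.77 and 10.4 FPKM in AOS. Slc38a9, the lysosomal arginine sensor, stood at 12.4, 11.7 and 12.3 FPKM in HS_AOS and 9.06, 9.55 and 8.48 FPKM in AOS. Efr3b and Rassf4 completed that side, with log2 changes of 0.74 and 0.50. On the lower side, Dpcd stood at 7.11, 6.83 and 7.07 FPKM in HS_AOS and 9.36, 9.69 and 9.37 FPKM in AOS (log2 change -0.39, adjusted p = 0.0603 by limma). All of these genes separated the 6 libraries by group. Stat4, given because earlier results of these data name it, stood at 20.1, 21.0 and 16.9 FPKM in HS_AOS and 18.6, 18.1 and 19.4 FPKM in AOS, and overlapped.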

How the data were processed

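RNA was sequenced from spleen in 18 libraries; per the labels' protocols, tissue was frozen, RNA was isolated by Trizol and column purification, and Illumina libraries were prepared. The submitters' processing notes name Bowtie 0.12.2 and mm10; no source used here names the counter or annotation. As deposited by the authors, the values were read as FPKM, a unit inferred from the values: their sums varied by 6.14% (coefficient of variation) and length-weighted sums by 1.29%. Relative depth was 0.969 to 1.05 from steps between low values (1429 genes, tolerance 0.15), an estimate that could hardly show a large difference; depth and its precision are otherwise unknown. Coordinates came from GENCODE M21 (18762 of 19326 symbols matched).

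limma 3.58.1 (R 4.3.3) was fitted to log2(FPKM + 1) of all 18 libraries, those of the transplant groups included. The fit had a single factor for group and eBayes with trend and robust, and tests were two-sided. The script was tested on simulated data. Where a symbol occurred on several lines (3 symbols), the most highly expressed line was named. Called genes with groups that do not overlap are named, then the 8 uncalled with the smallest p per direction, up to 4 members per list and 5 per direction for the difference. The members, lists and tests were chosen with earlier results of these data known. Alternatives were other pseudocounts, filters, scalings and moderation, a replicate block and leaving out each library. Some results for genes of these lists are not reported here.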

Additional observations from a re-analysis of the deposited data

Results flagged for a closer look

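The diet and STZ change of Kap differed by 3.63 on the log2 scale between mice with AOS and mice without it (adjusted p = 0.00195 by limma), with 0.10 FPKM on average in HS_AOS, 0 in AOS, 0.763 in HS and 18.1 in control. The 3 control libraries alone sufficed for Kap to pass the filter of 1 FPKM in 3 libraries.

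Every HS_AOS library lay below every AOS library and every HS library above every control library in the mean level of the unfolded protein response list, and the difference between the 2 changes in that mean was -0.74. The same order held narrowly for the amino acid stress response list, with a difference of -0.23. There HS_AOS 1 was at 4.134 and AOS 2 at 4.139. In HS_AOS against AOS, 1 of its 15 members was lower at an unadjusted p under 0.05 and 4 had a positive log2 change. Neither list's difference was tested.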

How the results depend on the processing

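The count of 5 called genes in HS_AOS against AOS was 15 with libraries centred on their median, 1 with no filter on low values, 8 in a fit to these 6 libraries alone, 0 when rescaled to a common sum and 8 when that sum left out haemoglobin and acinar genes (chosen after seeing the data); leaving out a library gave 1 to 5. A replicate block gave 3 over all 18 libraries and 3 within the 6; same-numbered libraries of HS_AOS and AOS correlated at -0.21, -0.10 and 0.09 in their deviations and those of HS and control at 0.46, 0.02 and 0.28, so the numbers are not taken to pair the samples. Over 16 alternatives Oxct1 was called in 14 (not with the block within the 6 libraries or rescaled to a common sum), Acot1 and Cyp4b1 in 8, Hsp90b1 in 6 and Klf10 in 5, none with a change of sign. HS against control had 2 calls, 8 with no filter, 1 with a pseudocount of 0.1 and 3 to 20 without a library (7 without control 2, 20 without control 3). The difference between the changes had 1 call, 2 centred, 0 with a pseudocount of 0.1 (774 unadjusted) and 1 to 8 without a library (4 without AOS 2, 8 without control 2). The causes were not tested. Of the list medians over these alternatives, 625 moved by less than the spread between libraries and 31 by more. With 3 libraries a group and no counts, the counting error of low values could not be estimated here.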

Other observations

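Some genes outside the lists had large log2 changes with groups that did not overlap; they were chosen after their values were seen and none was called. Gdpd3, a phosphodiesterase of lysophospholipids, stood at 0.45, 0.31 and 0.45 FPKM in HS_AOS and 11.1, 3.44 and 19.7 FPKM in AOS, against 24.7, 2.10 and 50.6 FPKM in HS and 0.43, 0.66 and 0.38 FPKM in control. The order of the groups was reversed between the mice with AOS and those without it. Eaf2, an elongation factor partner, stood at 14.2, 11.9 and 7.34 FPKM in HS_AOS and 43.8, 24.9 and 48.6 FPKM in AOS.

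A pair of sialyltransferase genes was among those chosen in this way. St6galnac1 stood at 2.28, 1.52 and 1.45 FPKM in HS_AOS and 0.09, 0.12 and 0.09 FPKM in AOS, and St6galnac2 at 14.5, 14.5 and 13.7 FPKM in HS_AOS and 5.84, 6.21 and 6.14 FPKM in AOS. Both transfer sialic acid to sugar chains on proteins. In HS and control St6galnac2 overlapped, at 7.96, 7.01 and 8.49 FPKM in HS and 5.31, 7.36 and 10.0 FPKM in control.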
